A study of Homo sapiens with 20 samples.

Results

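This comparison set mRNA footprints in initiation complexes precipitated with HA-tagged eIF1 against those precipitated with HA-tagged eIF2a, both from HEK 293T cells under the compound i14G1-12. The members were chosen by label: all 5 of the 20 libraries of the series with an HA precipitation and i14G1-12, and all 19029 Ensembl gene IDs of the count tables. The 4 groups compared were eIF1 under i14G1-12 (3 libraries), eIF2a under i14G1-12 (2 libraries), eIF1 under DMSO (3 libraries) and eIF2a under DMSO (2 libraries). The DMSO groups served as a second comparison of the same factors that shares no library with the first. Precipitates of eIF4G1 (3 libraries) and eIF3 (2 libraries) under i14G1-12, not among the HA libraries, were read only for description. Their DMSO libraries entered only fits to all 20 libraries. Cells received 5 µM i14G1-12 for 1 h, or DMSO, the solvent, for the same time. All 4 groups compared carry the genotype label WT, and the sources used here do not say how the tag was introduced. The labels write eIF2a and say no more about it. The title of the series calls the compound's context an inhibitor of eIF1 and eIF4G1. HEK 293T is a transformed human embryonic kidney line, and its identity could not be checked against markers, since the files pair no ID with a gene name.

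Translation initiation in human cells starts when a small ribosomal subunit, loaded with initiation factors and the initiator tRNA, joins an mRNA and moves along it to a start codon. eIF2 brings the initiator tRNA as a complex with GTP. eIF1 sits near the decoding site, keeps the subunit open for scanning and leaves upon recognition of a start codon. Selective translation complex profiling crosslinks cells, digests unprotected RNA and precipitates subunits through a chosen factor, so that the RNA they protect can be counted per gene. Input RNA was not analysed here, and a level is relative to the other RNA of the same precipitate. More complexes on an mRNA and more of that mRNA in the cell cannot be told apart. Factor, tagged cells, precipitation and library batch cannot be told apart either, because each factor has its own libraries.

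Total counts were 564021, 600524 and 503668 in the eIF1 i14G1-12 libraries, here called a, b and c, against 152354 and 244508 in the eIF2a i14G1-12 libraries 1 and 2. The eIF1 libraries had 6340, 7966 and 7252 IDs with at least 10 counts, against 3631 and 5355 for eIF2a. Under DMSO the eIF1 libraries held 1161512, 946004 and 806429 counts, against 269816 and 10033 for eIF2a, so 1 eIF2a DMSO library was far shallower than the rest. Across 8166 tested IDs, Spearman's rho was 0.816 to 0.864 between eIF1 libraries and 0.813 between the eIF2a libraries under i14G1-12. Library a of eIF1 stood apart from eIF2a, at rho 0.616 with both eIF2a libraries, where b and c had 0.719 to 0.742.

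Under i14G1-12 the precipitates of eIF1 and eIF2a differed in both directions over the 8166 IDs tested. Levels were higher in eIF1 for 489 IDs (5.99% of those tested) and lower in eIF1 for 262 (3.21%), by edgeR's quasi-likelihood test with a Benjamini-Hochberg adjusted p under 0.05. At an unadjusted p under 0.05 there were 2015 IDs (1146 higher and 869 lower in eIF1), where 408 would be 5% of those tested. The median log2 fold change of all tested IDs was 0.00 after TMM scaling, which sets library sizes so that most IDs do not differ. Of the IDs higher in eIF1, 472 differed by more than 2-fold, 153 by more than 4-fold and 31 by more than 8-fold, with a median log2 fold change of 1.64 and quartiles of 1.31 and 2.15. In 9 of them both eIF2a libraries had 0 counts, and their fitted fold changes depend on the prior count. Of the 262 IDs lower in eIF1, 226, 26 and 1 were past the same folds, with a median log2 fold change of -1.35. Which direction had the larger fold changes depended on scaling: with total counts the medians of the same IDs were 1.22 and -1.74. All 262 of the lower IDs and 488 of the 489 higher IDs had no overlap between the CPM (counts relative to the scaled library size) of the eIF1 and eIF2a libraries. Among all tested IDs the libraries did not overlap in 22.7% with eIF1 higher and in 22.2% with eIF1 lower. The calls and the overlap come from the same libraries, so the overlap only describes the calls and is no separate support. Of the 7415 IDs that did not pass, 1189 still differed by more than 2-fold, so at this depth a missing call does not show equal levels.

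The balance of directions depended on scaling. With total counts in place of TMM, the median log2 fold change of all IDs moved to -0.40, and 204 IDs were higher and 570 lower in eIF1, which makes 26.4% of calls higher in place of 65.1%. All of these 204 were among the 489, and all 262 lower IDs were still called. Without eIF2a library 2, 102 IDs were higher and 39 lower, and without eIF2a library 1, 285 were higher and 91 lower. These fits hold 1 eIF2a library, which is assumed to vary as the eIF1 libraries do, so fewer calls follow in part from the smaller group. The median log2 fold changes of the 489 and 262 IDs were 1.60 and -1.29 without library 2 and 1.70 and -1.34 without library 1. Without library a of eIF1, the one that stood apart, 441 were higher and 280 lower. No called ID was called in the opposite direction under any of the alternatives run.

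**Figure D1:**
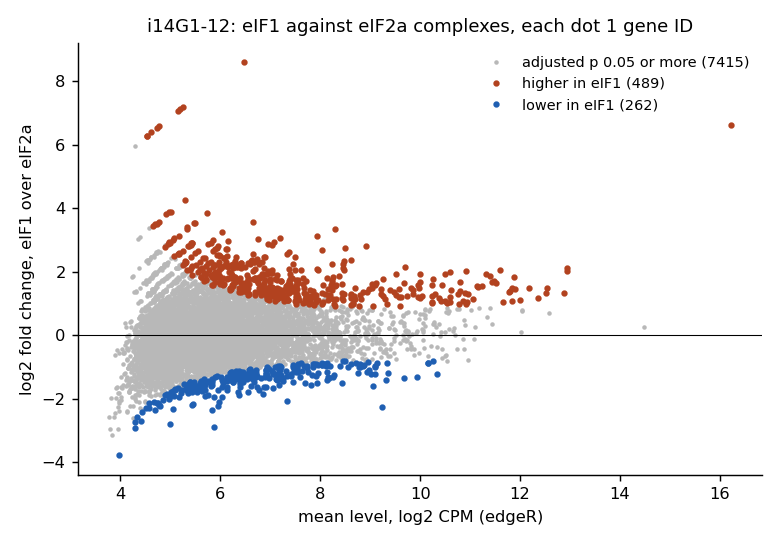
Each point is 1 ID, with its mean level over the 5 i14G1-12 libraries on the x axis and the log2 fold change of eIF1 over eIF2a on the y axis; coloured points passed edgeR's test. The 489 IDs higher in eIF1 reach larger fold changes than the 262 lower ones, and 1 ID stands alone at the far right.

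ENSG00000173812 (counted sequence 2338 nt) was the most abundant ID of the eIF1 libraries. It was singled out after its values were seen, and whether it encodes a tagged factor was not checked, since no table given here names it. It had 94045, 37462 and 38584 counts in eIF1, against 207 and 386 in eIF2a. That was 16.7%, 6.24% and 7.66% of all counts in the eIF1 libraries (exact 95% Clopper-Pearson intervals 16.6 to 16.8, 6.18 to 6.30 and 7.59 to 7.73), against 0.136% and 0.158% in the eIF2a libraries (0.118 to 0.156 and 0.143 to 0.174). The eIF1 libraries were all far above the eIF2a libraries, with library a highest. The log2 fold change was 6.63 (SE 0.59, edgeR adjusted p = 1.46e-09). In DMSO it took 14%, 5.45% and 7.22% of counts in eIF1 against 0.14% in each eIF2a library, and its log2 fold change was 6.55 (SE 0.92, edgeR adjusted p = 1.06e-08). In the other precipitates under i14G1-12 it took 0.21%, 0.252% and 0.303% of counts with eIF4G1 and 0.116% and 0.0848% with eIF3. Because of it, library composition is described below with and without this ID.

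The most abundant IDs held more of the counts in the eIF1 libraries than in the eIF2a libraries. The 10 most abundant IDs of each library held 25.4%, 13.3% and 15.5% of counts in eIF1, against 6.27% and 5.41% in eIF2a. Without ENSG00000173812 they held 11.1%, 7.99% and 8.96% in eIF1, against 6.27% and 5.41% in eIF2a, which narrowed the difference in means from 12.2 to 3.51 percentage points. The groups did not overlap in either form. The two-sided exact permutation p was 0.2 (adjusted p = 0.2 over 10 such tests), the smallest that 3 libraries against 2 can give, so this design cannot pass 0.05.

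**Figure D2:**
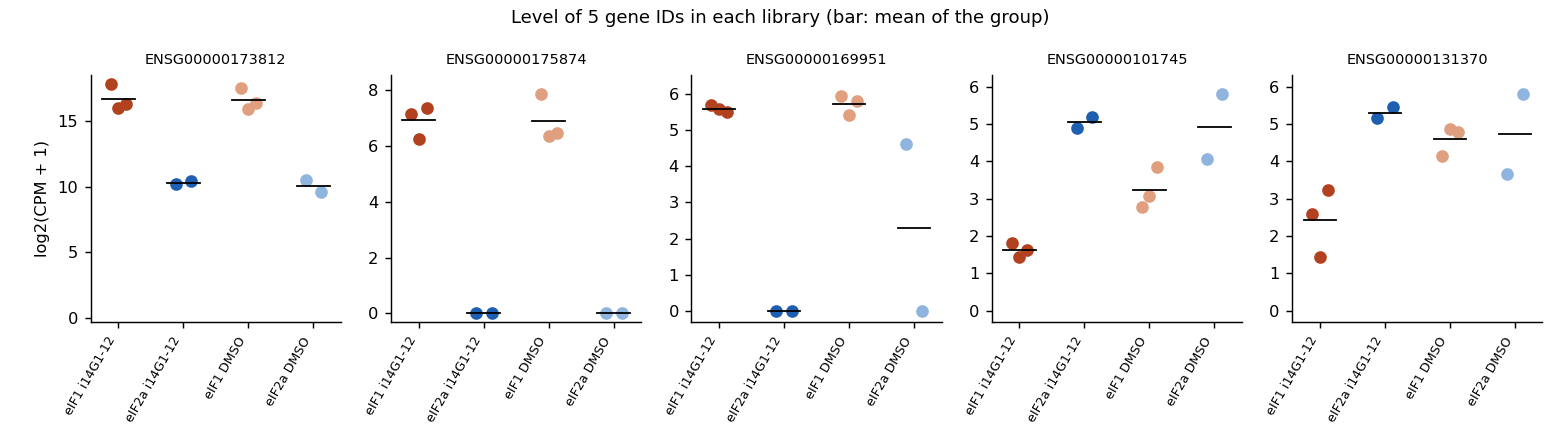
Level in each library, as log2(CPM + 1) on the y axis, for 5 IDs in the eIF1 and eIF2a groups under i14G1-12 and DMSO; each point is 1 library and the bar is the group mean. The eIF1 and eIF2a points under i14G1-12 are separate for all 5 IDs. The rule for named genes required this of each ID but ENSG00000173812.

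The IDs that the rule for named genes gave as the largest differences were mostly thinly counted on 1 side. ENSG00000175874 (6292 nt) was at 140.3, 75.7 and 164 CPM in the eIF1 i14G1-12 libraries, against 0 counts in both eIF2a libraries. Every eIF1 library was above both eIF2a libraries, which the rule required of each ID it named. The eIF1 mean was at least 19.2-fold higher than eIF2a, set against a floor of 3 counts over both eIF2a libraries (edgeR adjusted p = 6.2e-06). That figure leaves out the spread of the eIF1 libraries and counting error, and the lower 95% counting limit of the ratio from summed counts was 14.9. Under DMSO it was at 234, 80.7 and 87.7 CPM in eIF1 and at 0 counts in both eIF2a libraries, at least 12.3-fold higher (edgeR adjusted p = 2.74e-06, but 0.637 without eIF2a DMSO library 1). In a fit to all 20 libraries it averaged 2.03 ± 1.81 CPM (SD, n = 3) with eIF4G1 and 9.12 ± 2.10 CPM (SD, n = 2) with eIF3 under i14G1-12, so the level was low in both other precipitates.

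ENSG00000169951 (2846 nt) was at 50.1, 46.4 and 44.2 CPM in eIF1 under i14G1-12, against 0 counts in both eIF2a libraries. The 3 eIF1 values lay close together, at 46.9 ± 2.98 CPM (SD, n = 3), and their mean was at least 7.09-fold higher than the floor of the eIF2a libraries (edgeR adjusted p = 0.000853). The lower 95% counting limit of the ratio was 5.59. In the fit to all 20 libraries, under i14G1-12, it averaged 27.8 ± 12.0 CPM (SD, n = 3) with eIF4G1. With eIF3 it averaged 16.2 ± 12.1 CPM (SD, n = 2), and with eIF1 53.8 ± 4.66 CPM (SD, n = 3). Both other precipitates thus lay between eIF1 and eIF2a by their means. DESeq2's test gave this ID no adjusted p under i14G1-12, and it did not pass a filter at a minimum of 30 counts. Under DMSO it was at 60.1, 41.6 and 55.0 CPM in eIF1, against 23.4 and 0 CPM in eIF2a. The groups were also separate there, but the 0 came from the shallow eIF2a DMSO library. In that library 1 count is 54.9 CPM, which would lie within the eIF1 range. The difference did not pass (log2 fold change 1.28, SE 0.73, edgeR adjusted p = 0.581).

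Among IDs lower in eIF1, ENSG00000101745 (11284 nt) had 1 count in each eIF1 library under i14G1-12, against 5 and 10 counts in eIF2a. These are 2.50, 1.72 and 2.11 CPM in eIF1 and 28.8 and 35.7 CPM in eIF2a. The ratio of eIF1 to eIF2a, from summed counts over scaled library sizes, was 0.0623, with a 95% counting interval of 0.0116 to 0.22 (log2 fold change -3.78, SE 1.01, edgeR adjusted p = 0.0139). ENSG00000131370 (3279 nt) had 2, 1 and 4 counts in eIF1, against 6 and 12 in eIF2a, and a ratio of 0.121 (counting interval 0.0428 to 0.304). It was at 5.01, 1.72 and 8.43 CPM in eIF1 and at 34.6 and 42.8 CPM in eIF2a (log2 fold change -2.92, SE 0.83, edgeR adjusted p = 0.0219). Neither held a difference under DMSO that passed the test. ENSG00000101745 was there at 5.89, 7.33 and 13.4 CPM in eIF1 and 15.6 and 54.9 CPM in eIF2a (edgeR adjusted p = 0.813). ENSG00000131370 was at 16.5, 28.1 and 26.8 CPM in eIF1 and 11.7 and 54.9 CPM in eIF2a (edgeR adjusted p = 0.906). The value of 54.9 CPM for each came from 1 count in the shallow library. Without eIF2a i14G1-12 library 1, ENSG00000131370 had a log2 fold change of -3.04 but missed the threshold (edgeR adjusted p = 0.121), and without library 2 it did not pass the filter on low counts. ENSG00000101745 did not pass that filter without either eIF2a library. Under i14G1-12 DESeq2's test gave neither ID an adjusted p, and neither passed a filter at a minimum of 30 counts. With a prior count of 5 the log2 fold changes were -1.59 for ENSG00000101745 and -1.53 for ENSG00000131370, with the same p-values, so their size is poorly fixed at these counts. In the fit to all 20 libraries, under i14G1-12, ENSG00000101745 averaged 9.83 ± 7.57 CPM (SD, n = 3) with eIF4G1. With eIF3 it averaged 50.4 ± 31.3 CPM (SD, n = 2). ENSG00000131370 averaged 26.9 ± 5.47 CPM (SD, n = 3) with eIF4G1 and 39.2 ± 25.5 CPM (SD, n = 2) with eIF3.

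The IDs called under i14G1-12 were then read in the DMSO libraries, which were not used to call them. Of the 489 IDs higher in eIF1, 483 were tested under DMSO and 473 of them (97.9%) were also above eIF2a there, against 57.4% of the 8012 IDs tested in both treatments. Their median log2 fold change under DMSO was 1.07, with quartiles of 0.70 and 1.61. The eIF1 and eIF2a DMSO libraries did not overlap in 366 of them (75.8%), against 26.7% of the IDs tested in both. Of the 262 IDs lower in eIF1, 259 were tested under DMSO and 228 (88%) were also below eIF2a, against 42.6% of all. Their median log2 fold change under DMSO was -0.52, with quartiles of -0.80 and -0.22, and 41 (15.8%) did not overlap, against 7.24% of all. The overlap measure depended on the eIF2a DMSO library of 10033 counts, in which 4233 IDs had a count. An ID without counts there lies below eIF1, so for higher IDs the measure rests mostly on eIF2a DMSO library 1. A lower ID needed a count there to be separate, so the directions cannot be compared by this measure. For the lower IDs the share with the same direction was 27.4% without eIF2a DMSO library 1, where eIF2a is represented by the library of 10033 counts alone and TMM scaling put the median log2 fold change over all IDs at 6.12. With each of the other DMSO libraries left out this share was 85.5% to 93%. For the higher IDs the share was 92.4% to 98.3% over all DMSO libraries left out.

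**Figure D3:**
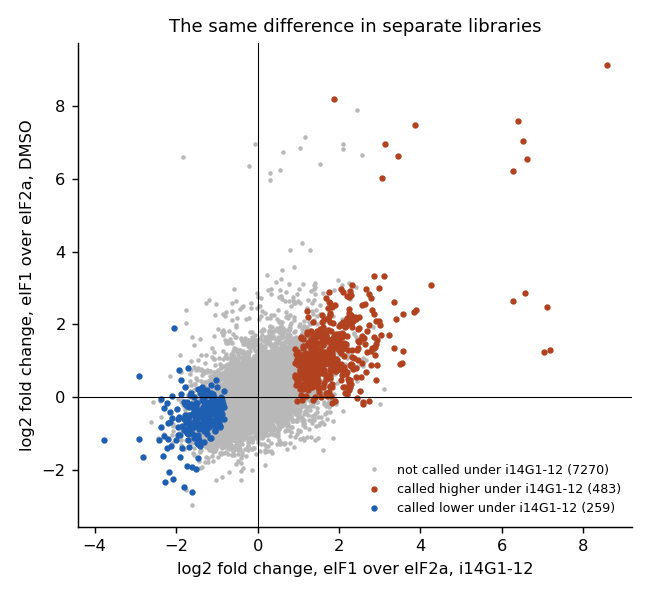
Log2 fold change of eIF1 over eIF2a for IDs tested in both treatments, with i14G1-12 and DMSO on separate axes, coloured by the i14G1-12 call. Of the higher IDs 97.9% and of the lower IDs 88% lie on the same side of 0 under DMSO.

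Few single IDs passed under DMSO. Of 9243 tested, 51 were higher (0.552%) and 13 lower (0.141%) in eIF1 by edgeR's test, with 918 at an unadjusted p under 0.05 (675 higher and 243 lower in eIF1), where 462 would be 5%. Of the 51, 42 were also called higher under i14G1-12, and of the 13, 8 were called lower. These are 8.7% of the 483 higher IDs and 3.09% of the 259 lower IDs tested in DMSO. The difference between treatments was tested as an interaction in 1 fit to the 10 eIF1 and eIF2a libraries. It passed for 0 of 9173 IDs (0%) by edgeR, with 381 at an unadjusted p under 0.05 where 459 would be 5%, and for 0 by DESeq2. Without eIF2a DMSO library 1, 4 IDs passed. The interaction test therefore gave no ID whose eIF1 to eIF2a difference was shown to change with i14G1-12, which does not show that the differences were equal.

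The called IDs also made up unequal shares of the libraries. Without ENSG00000173812, the IDs higher in eIF1 held 32.2%, 25.5% and 25.1% of counts in eIF1 under i14G1-12, against 12.6% and 11.3% in eIF2a. In DMSO the same IDs held 23.7%, 17.2% and 19.5% in eIF1, against 11.6% and 13.8% in eIF2a. The IDs lower in eIF1 held 2%, 3.12% and 3.17% in eIF1 under i14G1-12, against 7.29% and 7.76% in eIF2a, and 3.67%, 4.84% and 4.64% in eIF1 under DMSO, against 7.48% and 6.32% in eIF2a. The i14G1-12 shares were chosen by the calls and only describe them. The DMSO shares come from libraries not used for the calls, and the eIF1 and eIF2a libraries did not overlap there in either set.

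**Figure D4:**
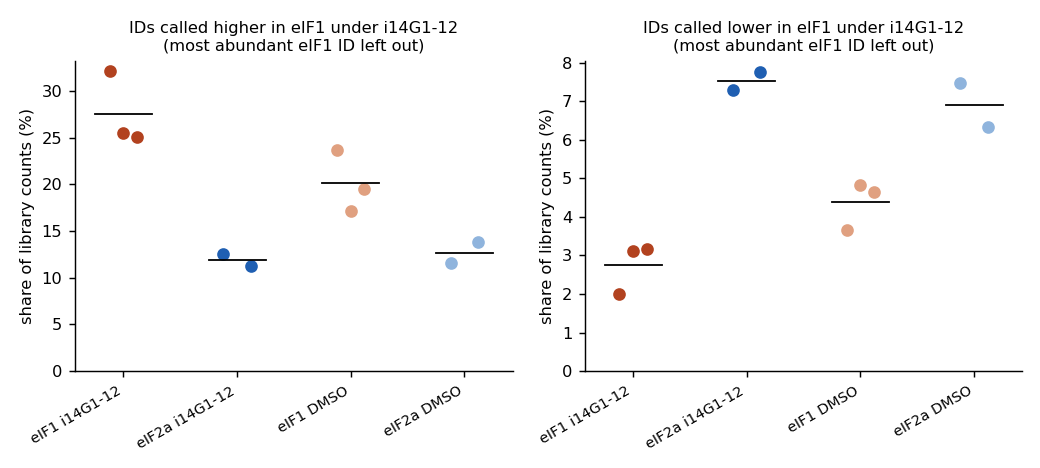
Share of each library's counts, in percent, held by the IDs called higher and lower in eIF1 under i14G1-12, without the most abundant eIF1 ID; each point is 1 library and the bar is the group mean. In both treatments the eIF1 libraries lie above the eIF2a libraries for the higher IDs and below them for the lower IDs.

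As a description, the counted sequences of the called IDs were shorter than those of all tested IDs. The median length was 2330 nt for the higher IDs, 2909 nt for the lower IDs and 3466 nt for all tested. The classes of length were set after the data were seen and no test was run on them. Of the 169 tested sequences of up to 600 nt, 57 (33.7%) were higher in eIF1 and 12 (7.1%) lower, with a median log2 fold change of 0.54. Of the 1665 sequences over 6000 nt, 33 (1.98%) were higher and 45 (2.7%) lower, with a median of -0.12. The 3 classes between them had 7.65%, 7.4% and 5.02% higher and 5.23%, 3.2% and 2.61% lower, from short to long. The higher share of calls among short sequences was also present among abundant IDs. Abundance was the mean CPM over the same libraries that gave the calls, and most of these were eIF1 libraries. IDs high in eIF1 thus enter the abundant classes more readily, so the splits by abundance only describe the calls. Among IDs with a mean of 71.3 CPM or more, 56 of 138 sequences up to 600 nt (40.6%) were higher in eIF1, against 21 of 475 over 6000 nt (4.42%). Calls of both directions were more frequent among abundant IDs. With the tested IDs in 3 equal classes by mean CPM, 1.62%, 3.6% and 12.7% were higher and 1.03%, 2.39% and 6.21% lower in eIF1, from low to high. Among IDs of 1000 CPM or more, 34 of 44 up to 600 nt were higher in eIF1 and 0 lower, against 22 of 77 higher and 4 lower among longer ones.

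Short sequences took a larger share of the eIF1 libraries. Sequences of up to 600 nt held 17%, 16.3% and 15.7% of counts in eIF1, against 10.7% and 10.2% in eIF2a. The means were 16.3% ± 0.651 (SD, n = 3) in eIF1 and 10.4% ± 0.354 (SD, n = 2) in eIF2a, with no overlap (two-sided exact permutation p = 0.2, adjusted p = 0.2, the smallest this design can give). In DMSO the shares were 13.5%, 12% and 12.8% in eIF1, against 10.2% and 10.9% in eIF2a. The other precipitates under i14G1-12 had 16.2%, 15.6% and 11.9% with eIF4G1 and 13.5% and 6.23% with eIF3, so 1 eIF4G1 library lay within the range of eIF1. Without ENSG00000173812 the i14G1-12 shares were 20.4%, 17.4% and 17% in eIF1, against 10.8% and 10.3% in eIF2a. They were then 16.2%, 15.6% and 11.9% with eIF4G1 and 13.5% and 6.24% with eIF3, all below the eIF1 range. Under DMSO 130 of 174 short sequences (74.7%) were above eIF2a, against 56.1% of the 9243 IDs tested, but 1 passed the test. The percent of short sequences called higher under i14G1-12 was 19.2 without eIF2a library 1, against 3.18 of all IDs tested in that fit, and 9.83 without eIF2a library 2, against 1.14 of all. Reads that fit several near-identical sequences may be split among them. Of the 35 short higher IDs with at least 2000 counts, 17 had a partner among them within 15% of their counts in each of the 5 libraries. Of all 59 higher IDs with at least 2000 counts, which include these 35, 32 had such a partner among the 59. How many of the 32 were short was not counted. How often IDs that were not called have such a partner was not counted either. Partners were matched by counts alone, which does not show that they share reads. The counts of such IDs may not be independent. Whether shared reads or sequence length play a part in the result was not tested.

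**Figure D5:**
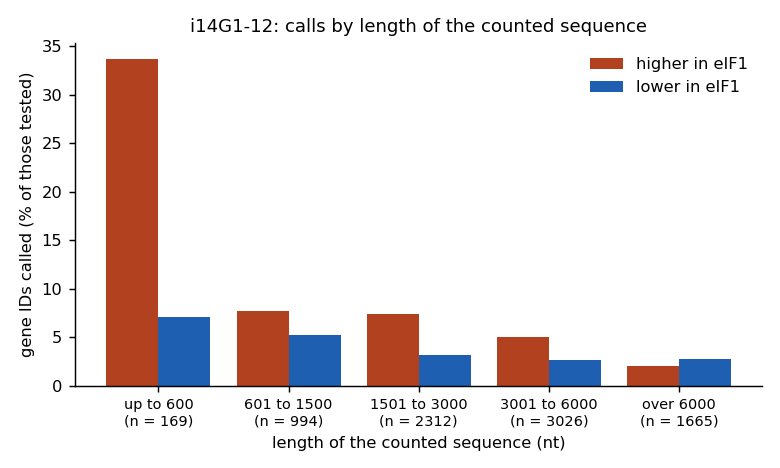
Percent of tested IDs called higher or lower in eIF1 on the y axis, by length class of the counted sequence on the x axis, under i14G1-12. The class of up to 600 nt has 33.7% higher and the class over 6000 nt 1.98%.

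The levels of the called IDs were also read in the eIF4G1 and eIF3 precipitates under i14G1-12, on 1 scale over all 20 libraries. The IDs were chosen for differing between eIF1 and eIF2a, so this only describes where the others lay. For 449 of the 489 higher IDs the mean eIF4G1 level, as log2(CPM + 1), lay between eIF1 and eIF2a, and for 347 the mean eIF3 level did. Among all 8166 tested IDs this held for 3573 with eIF4G1 and 2680 with eIF3. The median eIF1 level was 0.90 above eIF4G1 and 1.30 above eIF3, and the median eIF2a level was 0.84 below eIF4G1 and 0.43 below eIF3. The eIF3 values depended on its library 2. With eIF3 library 1 alone, 439 of the higher IDs and 3312 of all tested lay between, the median eIF1 level was 0.88 above eIF3 and the median eIF2a level was 0.77 below it. Of the 262 lower IDs, 223 had an eIF4G1 level and 168 an eIF3 level between the 2 HA precipitates, or 216 with eIF3 library 1 alone.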

How the data were processed

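The authors deposited raw read counts per Ensembl gene ID in a featureCounts layout, with the counted sequence length beside them; per the submitters' processing notes they used featureCounts, HISAT2, Bowtie, Trimmomatic and cutadapt with build hg38 and no versions. The sources used here do not give the handling of reads that fit several genes. Per the labels, libraries followed RNase digestion, fractionation and HA precipitation. eIF1 columns were assigned by name to their group only and no column was left unassigned (0). The files name no genes: 0 of 19029 IDs matched a symbol, so the 26 gene lists and cell type markers could not be used, the mRNAs of the tagged factors could not be set apart, and no sequence was printed.

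Counts of the 5 libraries per treatment were joined by ID and tested in R 4.3.3 with edgeR 4.0.16 (filterByExpr minimum count 10, TMM, glmQLFit, glmQLFTest; Benjamini-Hochberg threshold 0.05; limma 3.58.1). CPM are those of TMM-scaled libraries. SEs were taken from the size of the log2 fold change divided by the root of F. The tests were also run on simulated counts with the spread fitted to these data, and the outcome is not given here. Such counts hold no batch shared by the libraries of a factor. Named IDs passed the threshold with no overlap between the libraries and a mean of at least 10 CPM in the higher group, the 2 largest per direction (the same with 20 CPM). Alternatives were DESeq2 1.42.0 size factors and test, total counts, no filter, a minimum of 30 counts, fits to 10 or 20 libraries, a prior count of 5, a replicate block for the eIF2a numbers and each library left out. Every pair of replicates varied beyond counting noise (chi-square per degree of freedom 1.43 to 11.2), and none was merged. The labels do not say whether replicates are separate cultures, and p-values reflect only the spread of these libraries, possibly technical. Intervals and the floor of 3 counts cover counting error only. The comparison, lists and tests were chosen with earlier results of these data known.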

Additional observations from a re-analysis of the deposited data

How the results depend on the processing

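eIF1 and eIF2a libraries could not be paired, because the numbers in the eIF1 column names cannot be matched to the labelled replicates. A replicate block for the eIF2a numbers alone, added after seeing the data, left the interaction at 0 IDs by edgeR, with 326 at an unadjusted p under 0.05. Removal of the tagged factors' mRNAs was not run, since IDs are not named here; removal of the most abundant eIF1 ID was chosen after seeing the data in its place. The cause was not tested for any change, apart from alternatives that by construction hold fewer libraries or genes. Under i14G1-12 the 489 higher and 262 lower IDs became 204 and 570 with total counts, 321 and 108 by DESeq2, 196 and 38 in a fit to all 20 libraries, and 322 and 558 with the most abundant eIF1 ID removed and then total counts (median log2 fold change of all IDs -0.24, 36.6% of calls higher). Leaving out each library gave 102 to 549 higher and 39 to 305 lower. DESeq2 size factors, no filter, a minimum of 30 counts, a fit to 10 libraries and removal of that ID with TMM gave 468 to 554 higher and 227 to 392 lower. Under DMSO the 51 higher and 13 lower IDs became 49 and 67 with total counts (median -0.22, 42.2% of calls higher in place of 79.7%), 85 and 16 at a minimum of 30 counts, 31 and 6 by DESeq2, 20 and 5 in a fit to all 20 libraries, and 69 and 40 with the ID removed and then total counts (63.3% of calls higher). Leaving out each DMSO library gave 17 to 58 higher and 2 to 21 lower. Without eIF2a DMSO library 1, TMM scaling on the remaining library of 10033 counts put the median log2 fold change over all IDs at 6.12, so values from that setting have no usable scale, including the 4 IDs of the interaction, which was 0 to 4 over all libraries left out. The share of the same direction in DMSO was 92.4% to 98.3% for higher IDs and 27.4% to 93% for lower IDs. The difference in the top 10 share fell from 12.2 to 3.51 percentage points with the most abundant ID removed, and was 8.56 to 14.6 with each library left out; that of short sequences was 7.72 with the ID removed and 5.55 to 6.20 with each library left out. Depth limits the named IDs most: apart from ENSG00000173812, each had at most 12 counts in every eIF2a library under i14G1-12, and the 2 lower ones had at most 4 in every eIF1 library.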
